A study of Mus musculus with 14 samples.

Results

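The cyclic AMP receptors and phosphodiesterases described here are 9 genes measured in sorted mouse colon cells. They comprise 4 receptors that raise cyclic AMP (Vipr1, Vipr2, Ptger2 and Ptger4) and 5 phosphodiesterases that break it down (Pde1b, Pde2a, Pde3b, Pde4b and Pde4d). They were taken by gene name, all 9 were found, and they stand among 55487 genes counted in each library. They were chosen by pathway knowledge and selected on their levels in these libraries, mainly the difference between cre and wt macrophages, so values of that contrast are given for them as a description and without a test. The study sorted lamina propria macrophages and CD44+ EpCAM+ epithelial cells from mouse colon and sequenced polyadenylated RNA by Smart-seq2, a full-length cDNA method that keeps no strand.

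Macrophages of Tsc2fl/fl Lyz2cre/+ mice (cre macrophages, mice 8, 9 and 10, all male) were set against macrophages of Tsc2fl/fl Lyz2+/+ mice (wt macrophages, mice 2, 4 and 6, 1 male and 2 females). Epithelial cells came from cre mice 5, 8, 9 and 10 (3 males and 1 female) and from wt mice 2, 4, 6 and 7 (2 males and 2 females). All 4 groups carry the floxed Tsc2 alleles, and no group has the recombinase without them. Lyz2-cre acts in myeloid cells, so the epithelial cells of cre mice are neighbours of the targeted cells, and the cre allele also replaces 1 copy of Lyz2. The labels give no ages. Where libraries are called replicates, the labels give a mouse number for each, and p-values measure the spread between these libraries.

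Cyclic AMP is a second messenger made by adenylyl cyclases when receptors coupled to the stimulatory G protein Gs bind their ligands, and it is degraded by phosphodiesterases. It acts through protein kinase A, the EPAC exchange factors and transcription factors of the CREB family. In macrophages, prostaglandin E2 and vasoactive intestinal peptide are known to use this pathway to restrain inflammatory cytokines, and in colon epithelium it drives chloride secretion.

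Libraries held 7269103 to 9364551 counts. Tsc2 did not separate the macrophage groups: its level per length (FPKM) was 4.14, 4.71 and 3.53 FPKM in cre macrophages 8, 9 and 10, against 5.41, 4.99 and 3.34 FPKM in wt macrophages 2, 4 and 6. Its log2 change came to -0.14 (SE 0.23, adjusted p = 0.860 in edgeR), and a count over the whole gene does not tell floxed exons from the others. All 10 macrophage markers were detected in macrophage libraries, with a summed level, in counts scaled to library size (CPM), of 11131 to 14666 in cre and 6641 to 9610 in wt, against 31.6 to 69.1 CPM in cre and 47.0 to 108 CPM in wt epithelial libraries. Markers of other cell types were also detected in macrophage libraries. Fibroblast and smooth muscle markers summed to 1060, 2815 and 1917 CPM in cre macrophages 8, 9 and 10, and to 4554, 5534 and 3232 CPM in wt macrophages 2, 4 and 6, with none of the 12 at 0. The 10 eosinophil and mast cell markers summed to 42.7 to 73.7 CPM in cre and 102 to 123 CPM in wt macrophages, with Fcer1a at 0 in cre and Mcpt4 at 0 in wt. The 10 dendritic cell markers summed to 1044 to 1125 CPM in cre and 1066 to 1615 CPM in wt macrophages. In these sums the macrophage list was higher in every cre library, the stromal and the eosinophil lists were lower in every cre library, and the dendritic cell list overlapped. By log2 change 10 of 10 tested macrophage markers were above 0 (1 called), and 8 of 11 stromal, 5 of 5 eosinophil and mast cell and 9 of 10 dendritic cell markers were below 0 (1 dendritic cell marker called). Of tested epithelial markers 9 of 10 (median -0.38) and of T cell and innate lymphoid markers 5 of 6 (median -1.82) were below 0, with 0 called. Their sums overlapped, at 93.04 to 232 CPM in cre and 62.2 to 389 CPM in wt for the epithelial list and at 69.3 to 125 CPM in cre and 84.5 to 98.8 CPM in wt for the T cell list. Their part in the differences below was not tested, and in bulk samples fewer cells of a type and less RNA per cell cannot be told apart.

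**Figure D1:**
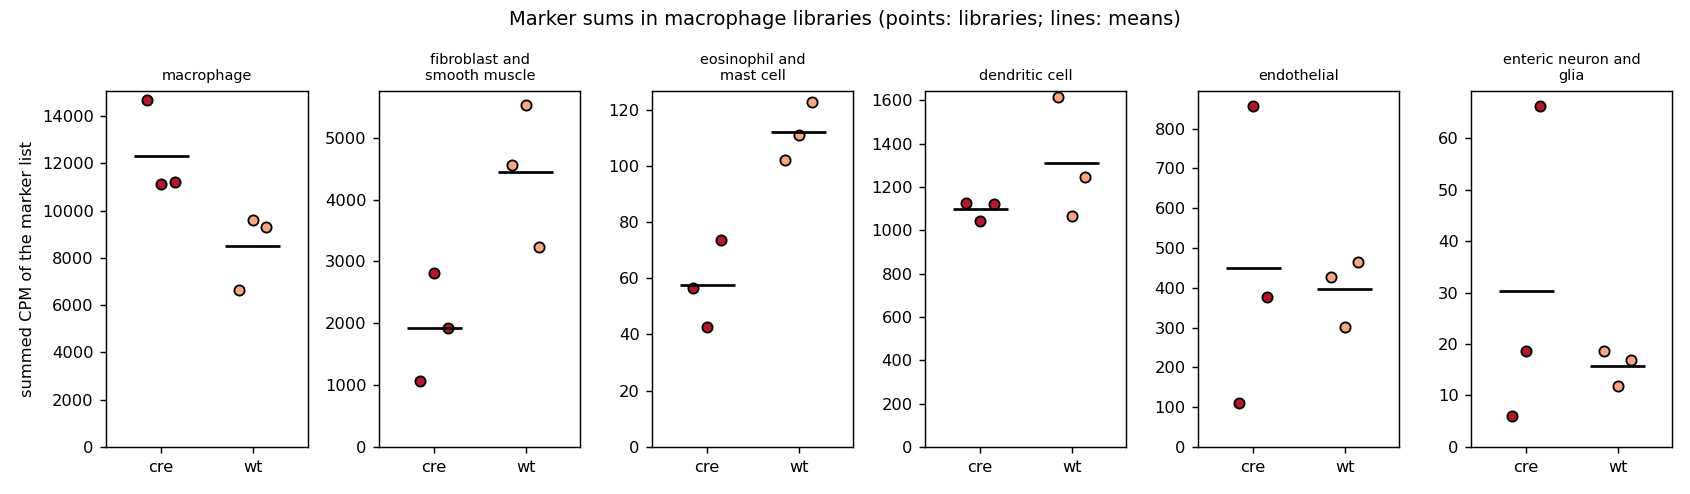
Summed CPM (counts scaled to library size) of 6 marker lists in macrophage libraries, cre left and wt right; points are libraries and lines are means. Macrophage markers sit at 11131 to 14666 CPM in cre and 6641 to 9610 CPM in wt, and fibroblast and smooth muscle markers at 1060 to 2815 CPM in cre and 3232 to 5534 CPM in wt.

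Vipr2 and Pde1b were the genes of the set that differed most between cre and wt macrophages, and both were lower in cre. The other 6 measured genes differed by less than 1 on the log2 scale in the main fit, and Pde2a had no counts. Pde4d passed 1 in at least 1 alternative, as given below. These 2 genes were the only ones of the 8 measured whose groups did not overlap, where 9.60% of all 14087 genes tested lay below wt without overlap. Over all genes edgeR called 0.213% lower and 0.944% in either direction at an adjusted p under 0.05. Of the 8 log2 changes 6 were below 0, as were 49.5% over all genes. Because the genes were chosen with this contrast known, nothing is read from these shares.

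Vipr2 encodes VPAC2, a Gs-coupled receptor for vasoactive intestinal peptide and PACAP, on chromosome 12 (GRCm38, 116077726 to 116146261, plus strand). It had 2.88, 4.90 and 4.13 CPM in cre macrophages 8, 9 and 10, against 35.02, 22.4 and 21.6 CPM in wt macrophages 2, 4 and 6. Every cre library lay far below every wt library, and wt macrophage 2 stood above the other wt libraries. The fitted level was 6.57-fold lower in cre (log2 change -2.72, SE 0.31). Per length, Vipr2 averaged 1.09 ± 0.29 FPKM in cre macrophages and 7.21 ± 2.08 FPKM in wt macrophages (SD, n = 3 each). The raw counts behind this were 19 to 44 in cre and 169 to 342 in wt libraries. Among males alone, with 3 cre libraries against wt macrophage 6, the log2 change was -2.42 (SE 0.39). With sex as a covariate it was -2.43 (SE 0.38), which is not a separate check. All cre macrophages were male, so in that fit too the change rests on wt macrophage 6. Without cre macrophage 10 the change was -2.74.

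In epithelial cells Vipr2 was low in both genotypes, with 4.24, 8.71, 5.19 and 5.10 CPM in cre libraries 5, 8, 9 and 10, against 10.3, 5.51, 6.37 and 3.54 CPM in wt libraries 2, 4, 6 and 7. These groups overlapped, with a log2 change of -0.16 (SE 0.32, edgeR adjusted p = 0.786). Cre macrophages thus held about the Vipr2 level of epithelial cells, 0.772 to 1.35 FPKM against 0.883 to 1.82 FPKM in cre epithelial cells. An annotated antisense gene, Gm20658, lies within Vipr2 but shares 0 exon bases with it. The sequence around the annotated Vipr2 start is shown because Vipr2 differed most.

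Vipr2 (RefSeq, GRCm38.p6, chr12:116077476-116077775, plus strand): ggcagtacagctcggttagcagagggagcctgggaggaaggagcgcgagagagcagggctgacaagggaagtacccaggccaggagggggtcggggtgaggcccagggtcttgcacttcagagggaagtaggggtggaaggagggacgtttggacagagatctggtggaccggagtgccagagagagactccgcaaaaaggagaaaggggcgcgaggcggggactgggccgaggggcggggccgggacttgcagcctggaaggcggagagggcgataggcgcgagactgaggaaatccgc

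Vipr1 encodes VPAC1, the other receptor for the same peptides, on chromosome 9 (121642716 to 121672954, plus strand). In macrophages it had 4.55, 5.23 and 6.40 CPM in cre and 6.76, 2.91 and 7.70 CPM in wt libraries. The groups overlapped, with wt macrophage 4 the lowest of all 6 (log2 change -0.11, SE 0.41). In epithelial cells Vipr1 had 14.7, 24.3, 21.1 and 18.4 CPM in cre and 19.9, 20.8, 28.7 and 29.7 CPM in wt libraries, which overlapped (log2 change -0.34, SE 0.19, edgeR adjusted p = 0.258). In cre macrophages both peptide receptors lay in 1 range, with Vipr2 at 0.772 to 1.35 FPKM and Vipr1 at 0.841 to 1.22 FPKM. In wt macrophages Vipr2 had 5.89 to 9.61 FPKM and Vipr1 0.551 to 1.45 FPKM, without overlap. Wt epithelial cells had the opposite order, with Vipr1 at 2.77 to 4.18 FPKM and Vipr2 at 0.722 to 2.08 FPKM. The Vipr1 promoter is shown because it holds the core of a CREB binding motif, TGACG, whose reverse complement CGTCA is in capitals. This core is in 20.8% of all promoters, so no difference in regulation from Vipr2 is read from it.

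Vipr1 (RefSeq, GRCm38.p6, chr9:121642466-121642765, plus strand): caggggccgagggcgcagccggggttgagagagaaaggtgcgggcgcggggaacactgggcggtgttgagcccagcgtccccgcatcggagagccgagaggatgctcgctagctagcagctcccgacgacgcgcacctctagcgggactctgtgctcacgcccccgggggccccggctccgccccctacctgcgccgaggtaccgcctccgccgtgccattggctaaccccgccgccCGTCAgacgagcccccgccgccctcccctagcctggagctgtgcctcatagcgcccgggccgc

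Ptger4 encodes EP4, a Gs-coupled receptor for prostaglandin E2, on chromosome 15 (5206661 to 5244187, minus strand). By mean FPKM it was the most abundant receptor of the set in all 4 groups. In macrophages it had 70.7, 91.1 and 96.8 CPM in cre and 90.7, 131 and 149 CPM in wt libraries. Wt macrophage 2 fell within the range of the cre libraries, and the other 2 wt libraries lay above it (log2 change -0.52, SE 0.21). In epithelial cells it had 14.4, 20.1, 14.2 and 18.1 CPM in cre and 18.3, 18.1, 22.1 and 29.0 CPM in wt libraries. Those groups overlapped (log2 change -0.39, SE 0.19, edgeR adjusted p = 0.187). Ptger4 shares 82 exon bases with Ttc33, which had 2862 counts over all libraries, and 1015 with the pseudogene Gm15937, which had 18. Both lie on the opposite strand, and how reads in shared exons were counted is not given in the sources used here.

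Ptger2 encodes EP2, another Gs-coupled prostaglandin E2 receptor, on chromosome 14 (44988195 to 45003820, plus strand). It had 1.37, 5.23 and 3.42 CPM in cre macrophages and 2.46, 4.89 and 5.45 CPM in wt macrophages, from 9 to 47 counts a library. The spread within each genotype was wider than the difference (log2 change -0.33, SE 0.53). In epithelial cells it had 0 counts in all 4 cre libraries and 2 counts in 1 wt library, which was too few to test. Ptger2 was thus detected in every macrophage library and in 1 epithelial library at this depth.

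Pde1b encodes a phosphodiesterase activated by calcium and calmodulin that degrades both cyclic AMP and cyclic GMP, on chromosome 15 (103503034 to 103530052, plus strand). It had 14.1, 13.1 and 10.2 CPM in cre macrophages 8, 9 and 10, against 64.3, 54.1 and 35.3 CPM in wt macrophages 2, 4 and 6. Every cre library lay below every wt library, and the only wt male, macrophage 6, was the lowest of the wt libraries. The fitted level was 4.10-fold lower in cre (log2 change -2.03, SE 0.26). Per length, Pde1b averaged 3.10 ± 0.47 FPKM in cre macrophages and 12.8 ± 3.69 FPKM in wt macrophages (SD, n = 3 each). With sex as a covariate the change was -1.50 (SE 0.27) and among males alone -1.49 (SE 0.31), both resting on wt macrophage 6. It was -2.13 without cre macrophage 8, -1.91 without cre macrophage 10 and -1.998 without wt macrophage 4.

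In epithelial cells Pde1b had 13.3, 7.30, 7.49 and 7.998 CPM in cre libraries 5, 8, 9 and 10, against 9.59, 6.58, 7.81 and 11.8 CPM in wt libraries 2, 4, 6 and 7. The groups overlapped, with a log2 change of 0.01 (SE 0.25, edgeR adjusted p = 0.979). The first of its 3 promoters in the table is shown because Pde1b was the other gene of the set that separated the macrophage groups.

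Pde1b promoter 1 (RefSeq, GRCm38.p6, chr15:103502784-103503083, plus strand): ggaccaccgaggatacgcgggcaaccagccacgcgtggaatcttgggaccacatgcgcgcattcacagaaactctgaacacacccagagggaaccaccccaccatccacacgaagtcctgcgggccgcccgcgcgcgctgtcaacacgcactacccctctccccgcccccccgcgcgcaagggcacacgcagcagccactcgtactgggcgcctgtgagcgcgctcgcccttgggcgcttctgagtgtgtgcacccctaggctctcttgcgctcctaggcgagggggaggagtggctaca

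**Figure D2:**
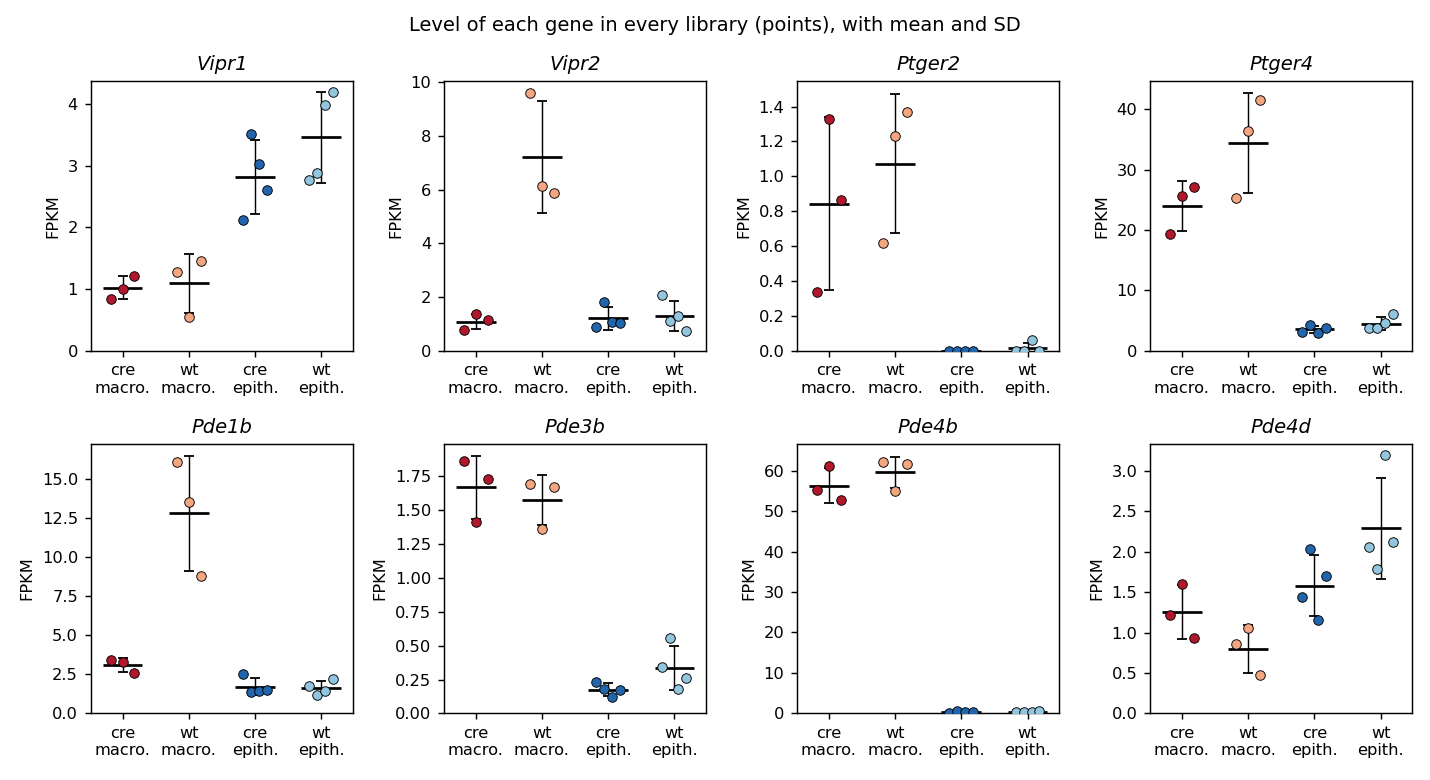
FPKM of 8 genes in each library, with cre and wt macrophages and then cre and wt epithelial cells; points are libraries, lines means and bars 1 SD, and each panel has its own axis. Vipr2 and Pde1b are lower in all 3 cre than in all 3 wt macrophage libraries, while Pde4b is at 52.7 to 61.1 FPKM in cre and 55.1 to 62.1 FPKM in wt macrophages. Pde2a had no counts and is left out.

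Pde4b encodes a cyclic AMP-specific phosphodiesterase of the PDE4 family, the target of rolipram and roflumilast, on chromosome 4 (102087543 to 102607259, plus strand). It was the most abundant gene of the set in macrophages and did not separate the genotypes. It had 496, 533 and 462 CPM in cre macrophages and 546, 484 and 543 CPM in wt macrophages, which overlapped (log2 change -0.08, SE 0.14). The interval of 2 SE around this change ran from -0.35 to 0.20. In epithelial cells it had 2.26, 5.77, 3.94 and 3.00 CPM in cre and 3.93, 2.75, 4.62 and 6.84 CPM in wt libraries (log2 change -0.29, SE 0.34, edgeR adjusted p = 0.610). Of its 4 promoters the first holds the core motif, again in capitals, and lies 334012 bases after the start of the gene as the counts file gives it.

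Pde4b promoter 1 (RefSeq, GRCm38.p6, chr4:102421305-102421604, plus strand): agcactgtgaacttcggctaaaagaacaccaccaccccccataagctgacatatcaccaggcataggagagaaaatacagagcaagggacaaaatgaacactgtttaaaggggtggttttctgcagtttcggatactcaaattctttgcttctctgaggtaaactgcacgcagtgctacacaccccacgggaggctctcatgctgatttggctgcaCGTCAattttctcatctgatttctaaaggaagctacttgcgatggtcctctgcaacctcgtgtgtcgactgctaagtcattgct

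Pde4d, a second member of the PDE4 family, on chromosome 13 (108449948 to 109953461, plus strand), had 8.95, 11.4 and 6.69 CPM in cre macrophages and 6.14, 7.54 and 3.44 CPM in wt macrophages. The groups overlapped, and its change was the only one above 0.5 in the set (log2 change 0.66, SE 0.37). Over 12 alternative settings this change ran from 0.33 to 1.395. The lowest of the macrophage libraries was wt macrophage 6, the only wt male. In epithelial cells it had 13.6, 19.1, 10.95 and 16.2 CPM in cre and 20.0, 17.5, 31.2 and 20.4 CPM in wt libraries. Cre library 8 fell within the wt range and the others below it (log2 change -0.57, SE 0.21, edgeR adjusted p = 0.0921). With no filter on low counts, and without cre epithelial library 8, Pde4d passed as lower in cre epithelial cells, with adjusted p from 0.0388 to 0.757 over 22 alternatives.

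Pde3b encodes a phosphodiesterase that cyclic GMP inhibits and that insulin is known to activate in fat cells, on chromosome 7 (114415281 to 114539251, plus strand). It had 13.5, 9.91 and 12.2 CPM in cre macrophages and 11.98, 9.66 and 11.8 CPM in wt macrophages, nearly the same range (log2 change 0.09, SE 0.25). In epithelial cells it had 2.17, 1.67, 1.15 and 1.6 CPM in cre and 3.32, 5.39, 1.75 and 2.48 CPM in wt libraries. Only cre library 5 reached into the wt range (log2 change -0.98, SE 0.37, edgeR adjusted p = 0.104). These rest on 12 to 23 counts in cre and 11 to 45 counts in wt libraries.

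Pde2a, a phosphodiesterase that cyclic GMP stimulates, on chromosome 7 (101421691 to 101512827, plus strand), had 0 counts in all 14 libraries. It shares 3955 of its exon bases (64.3%) with Gm45837, a gene on the same strand that had 14 counts in all. How reads in shared exons were counted is not given in the sources used here, so the 0 is not read as absence.

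None of the 7 genes tested in epithelial cells passed the adjusted threshold, where 9.17% of all 13553 genes were called, 5.64% higher and 3.53% lower. No epithelial groups of the 7 were free of overlap, where 6.68% of all genes lay below and 9.92% above wt without overlap. At an unadjusted p under 0.05 there were 2, Pde3b and Pde4d, where 27.3% of all genes were. Of the 7 log2 changes 6 were below 0, with a median of -0.34, where 55.2% of all genes were below 0 with a median of -0.05. DESeq2 gave an adjusted p for 6 of the 7, all but Pde3b, and called 0 of them.

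**Figure D3:**
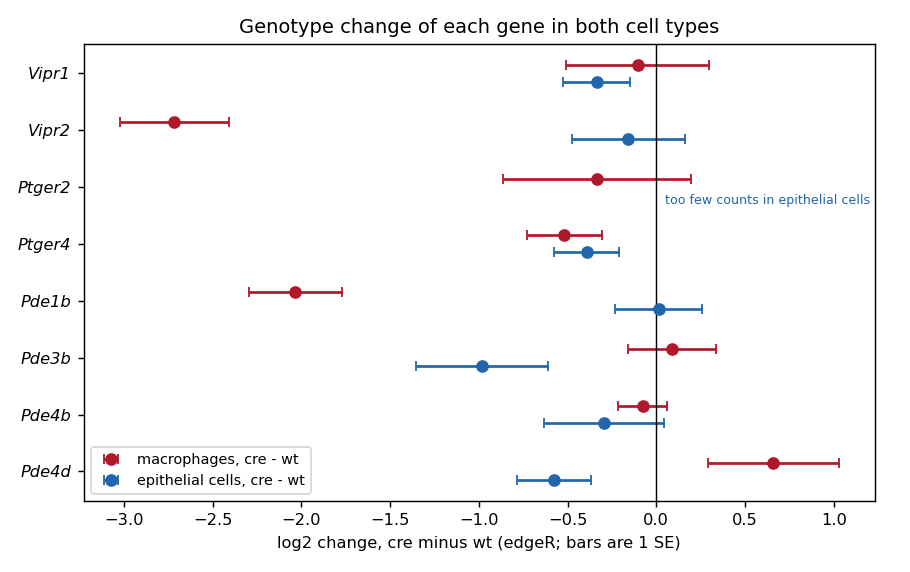
Log2 change, cre minus wt, of each tested gene in macrophages and in epithelial cells, with bars of 1 SE from edgeR. Vipr2 (-2.72) and Pde1b (-2.03) lie far below 0 in macrophages, and their epithelial values, -0.16 and 0.01, have bars that reach 0.

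Levels of the 9 genes ran over a wide range and were ordered differently in the 2 cell types. In cre macrophages the order by mean FPKM was Pde4b (56.3 ± 4.34), Ptger4 (24.0 ± 4.15), Pde1b (3.10 ± 0.47) and Pde3b (1.67 ± 0.23), with Pde4d, Vipr2, Vipr1 and Ptger2 from 1.25 to 0.842. Neighbours from Pde3b down to Ptger2 overlapped in range. In wt macrophages the order was Pde4b (59.6 ± 3.90), Ptger4 (34.4 ± 8.28), Pde1b (12.8 ± 3.69) and Vipr2 (7.21 ± 2.08), followed by Pde3b (1.57 ± 0.18), Vipr1, Ptger2 and Pde4d. There Pde1b and Vipr2 overlapped in range, and so did the genes from Pde3b down to Pde4d. Vipr2 was thus the sixth gene of the order in cre and the fourth in wt macrophages. In epithelial cells Ptger4 (3.53 ± 0.61 FPKM in cre and 4.50 ± 1.08 FPKM in wt) and Vipr1 (2.82 ± 0.60 FPKM in cre and 3.46 ± 0.73 FPKM in wt) led, and overlapped (SD, n = 4 each).

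Ptger2 and Pde2a had too few epithelial counts for a comparison of the cell types, and the other 7 genes passed the filter on low counts in both. All 7 differed between wt macrophages and wt epithelial cells at an adjusted p under 0.05 and at least 2-fold, where 37.1% of the 11686 genes that passed the filter in both cell types did. In macrophages 5 were higher, against 19.3% of those genes, and Vipr1 and Pde4d were lower, against 17.9%. The wt macrophage libraries are also those used in picking the genes, so nothing is read from these shares. For all 7 genes the differences that follow are thus a description. Vipr2 had a log2 difference of 2.35 (SE 0.34) and Pde1b of 2.84 (SE 0.27). Pde4b had 55.1 to 62.1 FPKM in wt macrophages and 0.229 to 0.579 FPKM in wt epithelial cells, 144-fold apart (log2 difference 7.17, SE 0.28). Ptger2, described by its counts alone, had 24 to 46 counts in wt macrophages and 0 to 2 counts in wt epithelial cells. Ptger4 was higher by 2.81 (SE 0.20) and Pde3b by 2.09 (SE 0.32). Vipr1 was lower (-1.76, SE 0.30), and so was Pde4d (-1.64, SE 0.30). In cre libraries 4 of the 7 passed: Pde4b (7.36), Ptger4 (2.66), Pde3b (3.13) and Vipr1 (-1.57). Pde1b (0.76), Pde4d (-0.43) and Vipr2 (-0.24) did not, and Vipr2 changed sign.

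Set beside all phosphodiesterases, Pde4b made up 78.7% to 80.2% of their summed FPKM in cre macrophages and 66.3% to 75.4% in wt macrophages. Pde1b made up 3.82% to 4.999% in cre and 10.8% to 18.04% in wt macrophages. The sum itself was 67.0 to 77.5 FPKM in cre and 81.6 to 88.9 FPKM in wt macrophages. In epithelial cells Pde9a, which degrades cyclic GMP, led with 36.9% to 45.1% in cre and 32.1% to 43.4% in wt, and Pde4d held 7.87% to 12.6% in cre and 11.3% to 15.8% in wt. These shares rest on the values that picked Pde1b and are a description.

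**Figure D4:**
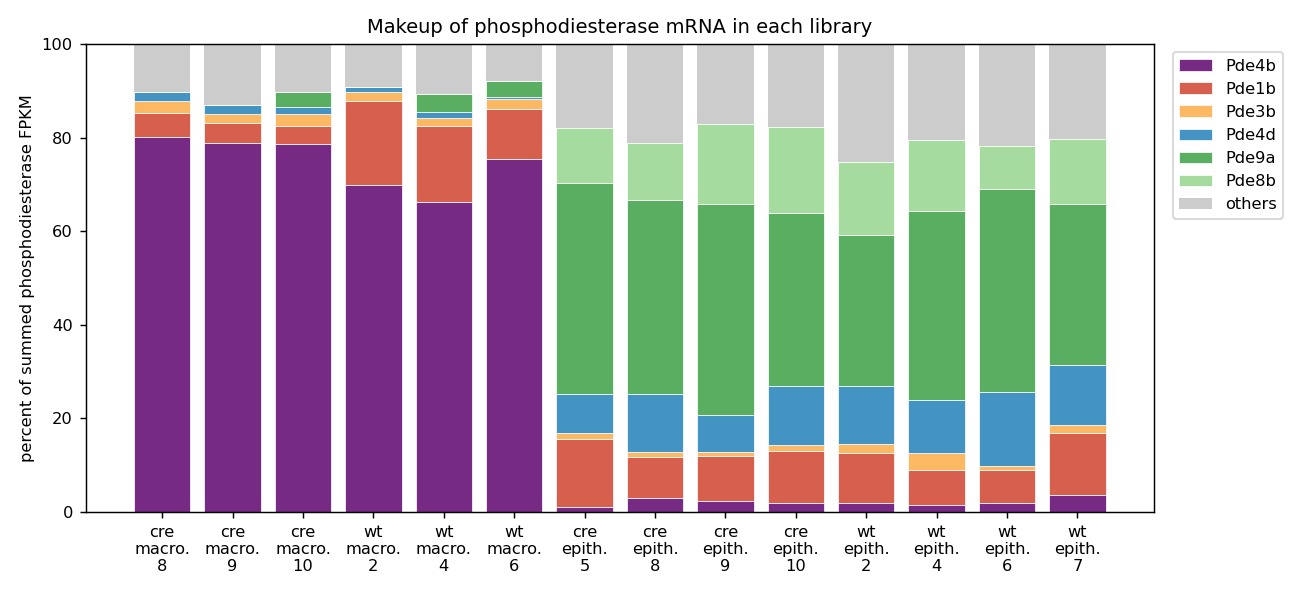
Share of each phosphodiesterase in the summed phosphodiesterase FPKM of every library, in percent, with the mouse number under each bar. Pde4b fills 78.7% to 80.2% of cre and 66.3% to 75.4% of wt macrophage bars, Pde1b is the next band, and Pde9a leads in epithelial bars.

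Among Gs-coupled receptors, RAMP proteins left out, the sum was 105 to 131 FPKM in cre and 134 to 152 FPKM in wt macrophages. Ptger4 made up 18.3% to 22.3% of it in cre and 16.7% to 28.8% in wt macrophages, next to Gpr65, a proton-sensing receptor, with 29.8% to 35.5% in cre and 25.9% to 27.1% in wt. Vipr2 made up 0.734% to 1.03% in cre and 4.10% to 6.33% in wt macrophages. In epithelial cells, Htr4, a serotonin receptor, Ptger4 and Vipr1 led, and Vipr1 held 14.6% to 20.7% in cre and 15.2% to 23.7% in wt.

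The peptide ligand of Vipr1 and Vipr2, encoded by Vip, is made by enteric neurons. It had 414 CPM in cre macrophage 10, 0.152 CPM in cre macrophage 8 and 0 in cre macrophage 9, against 21.8, 0.132 and 3.32 CPM in wt macrophages 2, 4 and 6. Enteric neuron and glia markers summed to 66.2 CPM in cre macrophage 10, and to 5.92 to 18.7 CPM in the other 5 macrophage libraries. Vip thus came mostly from 1 library, whose Vipr2 level lay between those of the other 2 cre libraries.

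The rest of the pathway was covered by 155 further genes in 8 lists. In macrophages 83 were tested and edgeR called 0 (0.944% of all genes), with 17 at an unadjusted p under 0.05, where 12.8% of all genes were, and a median log2 change of 0.04, against 0.00 over all genes. DESeq2 called 2, Adcy3 and Hcar2. Adcy3, an adenylyl cyclase, had 38.7, 44.1 and 44.5 CPM in cre macrophages 8, 9 and 10, against 6.04, 15.7 and 4.38 CPM in wt macrophages 2, 4 and 6. The groups did not overlap, with a log2 change of 2.29 (SE 0.43, edgeR adjusted p = 0.0512, from 6.06e-07 to 0.223 over 18 alternatives, 8 of which called it). The change was 3.02 without wt macrophage 4. It was 3.27 with sex as a covariate and 3.28 in males only, both resting on wt macrophage 6 as the only wt male. Hcar2, a Gi-coupled receptor for niacin and butyrate, had 46.1 to 67.8 CPM in cre and 88.7 to 143 CPM in wt macrophages (log2 change -0.91, SE 0.23, edgeR adjusted p = 0.122, from 0.00712 to 0.66 over 18 alternatives). Pde1a, close kin of Pde1b, had 3.64, 6.23 and 4.98 CPM in cre and 10.8, 15.2 and 7.70 CPM in wt macrophages (log2 change -1.17, SE 0.35, edgeR adjusted p = 0.194), and 0 counts in every epithelial library. With sex as a covariate the macrophage change was smaller, -0.61 for Hcar2 and -0.63 for Pde1a. In males only it was -0.61 for Hcar2 and -0.62 for Pde1a, and these fits too rest on wt macrophage 6.

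By role, none of the 5 adenylyl cyclases, 15 other Gs-coupled receptors, 10 Gi-coupled receptors, 10 other phosphodiesterases, 20 effectors and anchors and 17 CREB factors and targets tested in macrophages passed. The G protein subunit gene Gnai2, the highest of its list, had 53.1 to 74.7 FPKM in cre and 39.4 to 52.5 FPKM in wt macrophages, without overlap (log2 change 0.44, SE 0.19, edgeR adjusted p = 0.366). Among the others with the highest levels, Ramp3, a receptor partner protein, had a log2 change of -0.30 (SE 0.22), P2ry13 of 0.67 (SE 0.40), P2ry12 of 0.47 (SE 0.36), Pde7b of 0.88 (SE 0.36), Pde9a of -0.74 (SE 0.47) and Pkig of 0.20 (SE 0.15). Gpr65 had a log2 change of 0.01 (SE 0.14), Adora2b of -0.0027 (SE 0.33), Adcy7 of -0.33 (SE 0.17), and Prkar1a, a regulatory subunit of protein kinase A, of -0.13 (SE 0.15). Of CREB targets, Nr4a1 changed by 0.12 (SE 0.14), Dusp1 by 0.03 (SE 0.15) and Thbs1 by 0.21 (SE 0.18), none past the threshold. Their median over the 17 genes was 0.12. The difference of genotype effects between macrophages and epithelial cells was tested for 100 of the 155 genes and edgeR called 0 (0.702% of all genes). At an unadjusted p under 0.05 there were 18, where 15.3% of all genes were, and DESeq2 called 1, Ep300. Only 52 of the 100 passed the filter on low counts in both cell types. Genes near 0 counts in 1 cell type could not be decided (SE 1773 for Htr7), so the 0 is not read as equal effects.

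In epithelial cells 63 of the 155 genes were tested and 5 passed (9.17% of all genes), 1 higher and 4 lower, and their median was -0.36 against -0.05 over all genes. Pkig, an inhibitor of protein kinase A, was higher by 0.52 (SE 0.14, edgeR adjusted p = 0.0373). Pkia, another such inhibitor, was lower (-0.98, SE 0.23, adjusted p = 0.0198 in edgeR), as were Pde3a (-0.74, SE 0.21, adjusted p = 0.0418), the anchor Akap11 (-0.79, SE 0.23, adjusted p = 0.0431) and the CREB coactivator Ep300 (-0.77, SE 0.23, adjusted p = 0.0485). Ribosomal RNA took 7.37% to 26.7% of counts in cre and 18.5% to 31.8% in wt epithelial libraries. With that share as a covariate 0 of the 5 passed, as in males only and in 1 fit of all 14 libraries. Those fits called few genes of any kind, as given further below, so nothing particular to the 5 is read from the 0. With the ribosomal RNA covariate Pkia (-1.04) and Akap11 (-1.04) were no smaller in size, while Pde3a (-0.48), Ep300 (-0.48) and Pkig (0.23) were. In males only the 5 changes were 0.52 for Pkig, -0.96 for Pkia, -0.82 for Pde3a, -0.66 for Akap11 and -0.91 for Ep300. With a trend on gene length removed Pde3a came to -0.29, Akap11 to -0.41, Ep300 to -0.34 and Pkig to 0.40, and only Pkia passed (-0.87). Without cre epithelial library 5, 9 or 10 none of the 5 passed. Without cre 8 Pkig, Pkia and Pde3a passed, without wt 2 Pkig and Pkia, without wt 4 Pde3a and Ep300, without wt 6 Pkia and Akap11, and without wt 7 all but Pkig. Mitochondrial genes took 10.4% to 10.7% of counts in cre and 11.6% to 18.1% in wt epithelial libraries. With ribosomal RNA and mitochondrial genes left out of the fit all 5 passed, as they did with RLE factors and in DESeq2. Whether the mitochondrial share of a library goes with the 5 changes was not tested.

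**Figure D5:**
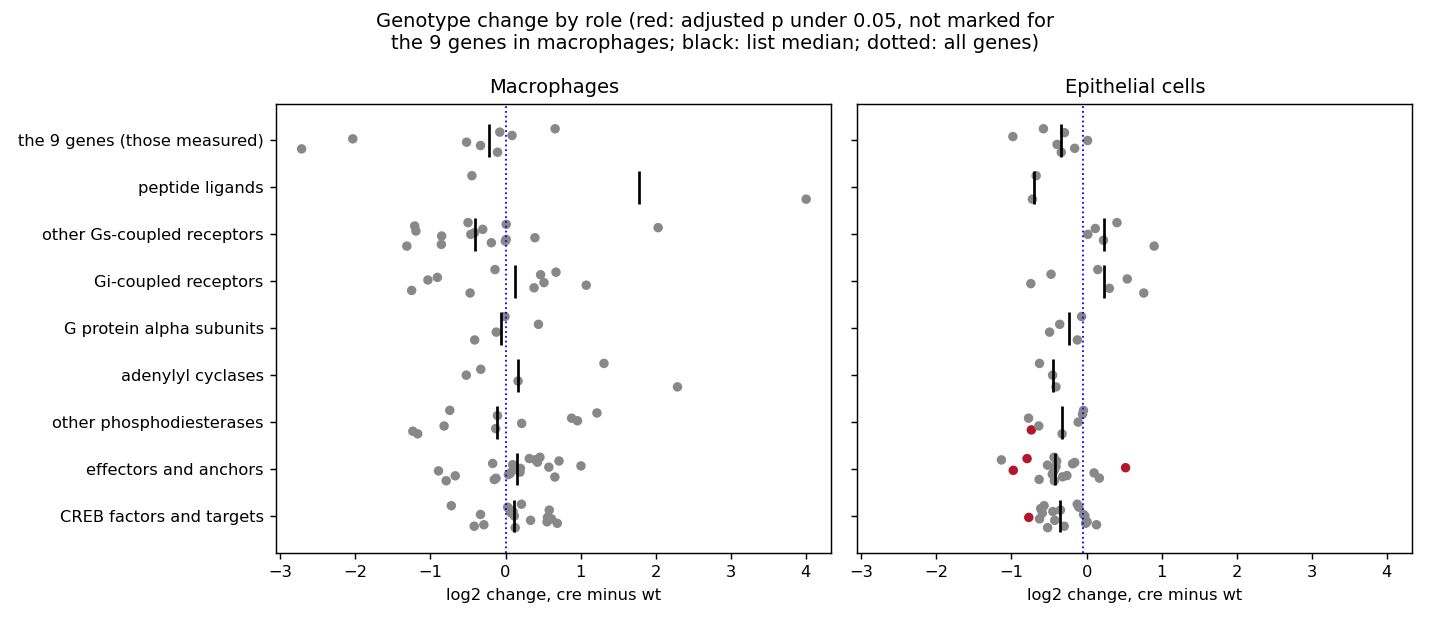
Log2 change, cre minus wt, of every tested gene by role in macrophages (left) and epithelial cells (right); red points passed an adjusted p under 0.05, black lines are list medians and the dotted line is the median of all genes. The 9 genes were picked on the macrophage contrast and are not marked there; no other pathway gene is red in macrophages, and the 5 red points in epithelial cells are Pkig, Pkia, Pde3a, Akap11 and Ep300.

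Between wt macrophages and wt epithelial cells 28 of the 52 pathway genes that passed the filter in both differed, 22 higher and 6 lower in macrophages, where 37.1% of all such genes differed, 19.3% higher and 17.9% lower. Of the 17 CREB factors and targets 12 passed, all higher in macrophages. The median log2 difference of these 17 was 2.02, against -0.03 over the 11686 genes. Of the other Gs-coupled receptors 3 of 34 passed the filter in both cell types, and 2 of them differed, both higher in macrophages.

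Genes whose level followed a member most closely over the 14 libraries were found by the root mean square difference of centred log2 CPM, among 8559 candidates. For Vipr2 they were Fzd1 (0.60), a Wnt receptor, and Arvcf (0.62), a catenin. Fzd1 averaged 2.75 FPKM in cre and 11.8 FPKM in wt macrophages. For Pde1b they were Oaf (0.42) and Rcn1 (0.44), and Rcn1, a calcium-binding protein of the endoplasmic reticulum, averaged 4.43 FPKM in cre and 12.01 FPKM in wt macrophages. For Pde4b they were Cytip (0.32) and the leukocyte actin bundler Lcp1 (0.32), and for Ptger4 Arhgap18 (0.21) and Actr3 (0.22). Pde3b stood nearest to Prkar2b and Rnf180, and Pde4d to Fam120a and Exo5. The 14 libraries include both cell types, so a shared step between them counts toward the likeness. A shared step between cre and wt macrophages counts as well, so the lower cre means of Fzd1 and Rcn1 follow in part from the choice.

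Promoter sequences of 250 bases before to 50 bases after a start were found for 8 of the 9 genes, 17 windows in all, in the RefSeq table. Pde3b had no entry. The full cyclic AMP response element TGACGTCA, its own reverse complement, was in 0 of the 17 windows and in 1.79% of all 32851 promoters. Its core TGACG, read on both strands and contained in the full element, was in 3 windows, those of Vipr1, Pde2a and Pde4b, and in 20.8% of all promoters. The core began 13 bases before the start in Vipr1 (position -13), at -34 in the Pde4b window and at 14 in the second Pde2a window. The E-box CACGTG was in 0 of the 17 windows and 7.15% of all promoters. Neither the Vipr2 nor the Pde1b windows held any of these letters.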

How the data were processed

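Raw counts per gene and FPKM were deposited by the authors for 14 libraries of 50 bp single reads, per the file headers and the labels' protocols. STAR 2.5.2b, DESeq2 1.24.0, Picard 2.19.2 and the builds GRCm38 and mm10 are listed in the submitters' processing notes. Which counter and annotation were used, and whether strand was read, is not given in the sources used here. The deposited FPKM were the counts scaled by gene and by library (relative deviation at most 1.73e-14, 13471 genes). Of 55487 gene IDs, 55227 were found in the GENCODE M21 annotation used for exons.

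The test of counts was edgeR 4.0.16 (R 4.3.3; TMM, filterByExpr with a minimum count of 10, robust quasi-likelihood F test, Benjamini-Hochberg adjusted p under 0.05 over all genes). Each cell type was fitted alone. The cell type difference, which also needed a log2 difference of 1, and the difference of genotype effects were fitted on all 14 libraries in 4 groups. SE is the log2 change over the root of the F statistic, CPM use TMM sizes within a cell type, and levels between genes use FPKM. Fits were tested on simulated data. Alternatives were RLE factors, DESeq2 1.42.0, other filters, limma 3.58.1 on log2(FPKM + 1) or log2(FPKM + 0.1), all 14 libraries in 1 fit, sex, males only, an rRNA covariate, leaving out ribosomal and mitochondrial genes or each library, and, added after seeing the data, length and GC trends.

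The 9 genes, the lists and the tests were chosen with earlier results of these data known. The text names the 9 genes, pathway genes that passed between genotypes, those with the highest FPKM of a list, and the 2 nearest genes of each member; those of Ptger2 and Vipr1 are not reported here. Titles carry 4 mouse numbers per genotype, while the series text counts 3 control and 4 cre mice; if 2 wt epithelial libraries share an animal, p-values are too small. No 2 libraries of a group were copies (smallest chi-square per degree of freedom 6.2). Depth was 7269103 to 9364551 counts, and intervals cover the spread between libraries only.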

Additional observations from a re-analysis of the deposited data

Results flagged for a closer look

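In 3 of 100 groups of 4 epithelial libraries that were checked, 1 library stood apart from the other 3, where chance gives about 1 in 20. Pde1b had 13.3 CPM in cre epithelial library 5 (141 counts), against 7.30 to 7.998 CPM in the other 3 cre libraries. Without this library the Pde1b change in epithelial cells was -0.24. Sct, which encodes the peptide secretin, had 61.8 CPM in the same library, against 25.3 to 29.6 CPM in the others. Cre epithelial library 5 was the only female of its group and had the lowest ribosomal RNA share of it (7.37%). The part of either in these values was not tested. Sstr5, a Gi-coupled somatostatin receptor, had 4.10 CPM in cre epithelial library 8 (32 counts), against 1.40 to 1.63 CPM in the others.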

How the results depend on the processing

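In macrophages all 18 alternatives kept Vipr2 (-2.90 to -1.96) and Pde1b (-2.24 to -1.49) lower in cre. Every alternative reuses libraries that picked the genes, so these ranges are a description and give no further support. The smallest Pde1b change, -1.49, came from males only, where wt macrophage 6 was the only wt library. All genes called were 133, against 498 (DESeq2), 299 (no filter), 47 (log2(FPKM + 1), no filter), 374 (all 14 libraries), 2 (sex) and 32 (males), and 29 to 87 on leaving out each library. Other pathway genes called were 0, against 2 (DESeq2, all 14 libraries) and 1 (no filter, minimum count of 50, log2(FPKM + 1), log2(FPKM + 0.1), males, length and GC), and 0 to 1 on leaving out each library. In epithelial cells all genes called were 1243, against 1956 (DESeq2), 0 (log2(FPKM + 1), no filter), 19 (all 14 libraries), 5 (males), 3 (rRNA covariate) and 624 (length and GC), and 178 to 1947 on leaving out each library. Pathway genes called were 5, against 2 (log2(FPKM + 1), log2(FPKM + 0.1)), 1 (length) and 0 (log2(FPKM + 1) with no filter, all 14 libraries, males, rRNA covariate, length and GC), and 0 to 8 on leaving out each library. Of the 9 genes 1 passed with no filter, and 0 to 1 on leaving out each library. For the difference of effects all genes called were 115, against 510 (DESeq2) and 54 to 229 on leaving out each library, and pathway genes 1 with DESeq2 or sex as a covariate, and 0 to 1 on leaving out each library. Between cell types 4 of the 7 genes that passed the filter in both cell types passed in cre libraries, against 7 in wt libraries. Ptger2 is left out, since it passed the filter through its macrophage counts alone. Vipr2 and Pde1b, picked with the wt macrophage levels known, are among those that did not pass in cre libraries, so these counts are a description.

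Small epithelial changes turned sign: Vipr2 (-0.16) to 0.37 in males, 0.12 with the rRNA covariate and 0.18 without wt epithelial 2 (-0.41 to 0.18 on leaving out each library); Pde1b (0.01) to -0.0297 (minimum count of 50), -0.37 (males), -0.0015 (no rRNA or mitochondrial genes), -0.20 (rRNA covariate), and -0.24, -0.11 and -0.04 without cre 5, wt 4 and wt 6 (-0.24 to 0.18); Pde4b (-0.29) to 0.14 (rRNA covariate) and 0.0297 (length). Vipr2 between cell types was -0.24 in cre libraries. The causes were not tested.

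Same-numbered libraries correlated at -0.0117 to 0.0775 (median 0.0218), and differently numbered ones of a genotype at -0.0837 to 0.0482 (median -0.0074). Each wt macrophage library correlated most with the epithelial library of its own number, as did cre macrophage 9, but not cre macrophages 8 and 10. The numbers were not taken as pairs in the main fits, which thus leave out any shared animal. With the replicate block 6625 genes passed between cell types, against 6842 in the same 6 libraries without it. Low counts limit Ptger2, Pde3b in epithelial cells and Vipr2 in cre macrophages.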

Other observations

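Gnas, which encodes the stimulatory G protein alpha subunit through which all 4 receptors act, had 469 counts over the 14 libraries. It had 22 to 32 counts in cre macrophages and 33 to 46 in wt macrophages. Its exons share 1469 bases with Gm20721 and 988 with Gnasas1, both on the opposite strand and both at 0 counts. How reads in shared exons were counted is not given in the sources used here, so the level of Gnas, like that of Pde2a, is not read.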
